A study of Mus musculus with 3 samples.

Results

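Heat shock proteins and chaperones were compared between fetal kidney at 13.5 days post coitum (dpc) and the metanephroi of 11.5 dpc, from which the permanent kidney forms. The members were taken by name: array features with exactly 1 gene symbol in the platform annotation, of the Hsp90, Hspa, Hspb, Hspd, Hspe, Hsph, Dnaja, Dnajb and Dnajc series or Cct2 to Cct8. This gave 74 genes, read by 81 features, out of 15096 named genes on the array, and 72 of them had a value on all 3 arrays. They comprised 1 Hsp90 gene, 13 Hsp70 and Hsp110 genes, 3 of the mitochondrial chaperonin, 7 small heat shock proteins, 42 Dnaj genes and 8 Cct genes. Cct2 and Dnajc25 lacked a value on array 2 and were not tested.

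Both groups were microdissected from CD1 mouse embryos as pools of both sexes: fetal kidney at 13.5 dpc and metanephroi at 11.5 dpc, with no treatment, mutation or transgene named for either. Each of 3 Compugen mouse oligonucleotide arrays received amplified RNA of both ages, 1 age per channel, with the dye order red/green on arrays 1 and 2 and green/red on array 3. The deposited value of a feature is a log2 ratio, and its likely direction is 11.5 over 13.5 dpc. A negative ratio is therefore read below as more RNA at 13.5 than at 11.5 dpc, and every direction turns if that reading is wrong. A ratio carries no level, so neither the abundance of a chaperone nor the presence of kidney markers could be read from these values. These are whole organs, and fewer cells of a type and less RNA per cell cannot be told apart.

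Chaperones bind unfolded stretches of other proteins and keep them from clumping while they fold. Hsp70 proteins do so in cycles of ATP hydrolysis that J-domain proteins of the Dnaj families start and that nucleotide exchange factors such as the Hsp110 proteins end. Hsp90 acts on nearly folded clients such as kinases and steroid receptors, small heat shock proteins hold aggregating proteins without ATP, and the Cct ring, also called TRiC, encloses actin and tubulin while they fold. Many of these genes are switched on by heat shock factors, and those of the endoplasmic reticulum (ER) by the unfolded protein response.

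The 72 tested members had a median log2 ratio of 0.019, against -0.0084 over all 19015 rows, and their means ran from -1.05 for Cct8 to 1.93 for Hspb9. Genes with more RNA at 13.5 dpc on every array included the Cct subunits Cct8 and Cct6a, the Hsp70 partners Dnaja1 and Hspa4, and the mitochondrial Hsp70 Hspa9. Those with less RNA at 13.5 dpc on every array included Dnajb4, Dnajb5, Hspb7, Hspb11 and the co-chaperonin Hspe1. No member passed an adjusted p of 0.05 in limma (0 of 72, with adjusted p from 0.415 to 0.988; 0 of all rows, which is 0.0%), so each direction below is a description of 3 arrays.

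At an unadjusted limma p under 0.05 there were 8 members, or 11.1%, against 9.24% of all rows. Of these 6 were negative (Cct8, Dnaja1, Cct6a, Hspa4, Dnajc17 and Dnajb14) and 2 positive (Dnajb4 and Dnajb5), where 5.07% and 4.17% of all rows met the same p in those directions. The share of members is near the background. The count depends on the arrays used: it was 1, 4 and 10 without arrays 1, 2 and 3, where 3.87%, 5.36% and 12.3% of all rows met the same p, and Cct8 was the 1 gene that met the p in each of those refits. Because array 3 has the other dye order, the fit was also repeated with its sign turned; 4 other members and 6.58% of all rows then met the p, and none of the 8. Markers with large ratios had the same sign and a like size on all arrays as deposited. The red cell gene Ermap had 3.39, 3.80 and 3.34, the carbonic anhydrase gene Car2 2.61, 2.91 and 2.60, and the kidney cadherin gene Cdh16 -1.54, -1.76 and -1.58. On a turned array 3 these genes would have opposite signs to arrays 1 and 2. Ratios of 1 sign on all arrays were found for 32 members, 19 negative and 13 positive. That is 44.4%, against 35.3% of all rows (18.5% negative and 16.8% positive). A difference of at least 1.5-fold on every array was found for Cct8 alone, 1.39% of the members against 2.52% of all rows.

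The arrays did not vary alike. Over all rows the log2 ratios had standard deviations of 0.56, 0.75 and 0.93 on arrays 1, 2 and 3. Across the 72 members, Pearson's r was 0.27 between arrays 1 and 2, 0.30 between arrays 1 and 3 and -0.28 between arrays 2 and 3. These values leaned on the genes above 3.5 on array 3. Over the 68 members without them, r was 0.46, 0.11 and -0.03 for the same pairs of arrays. Spearman's rank coefficient over all 72 was 0.44, 0.22 and 0.11. All are given as a description of genes that share the same arrays. The 95% limma interval of a member reached 0.49 log2 units to either side of its mean at the median, from 0.40 for the tightest to 4.09 for Hspa1a. Over all gene features, 415 or 1.92% lay above 3.5 on array 3, against 0.0243% and 0.0423% on arrays 1 and 2. Of the member features, none did on array 1 or 2 and 5 of 81 did on array 3. These features belonged to Hspb9, Hspa1a, Cct6b, Dnajc24 and Dnajc2, so the means of those genes rest on array 3.

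**Figure D1:**
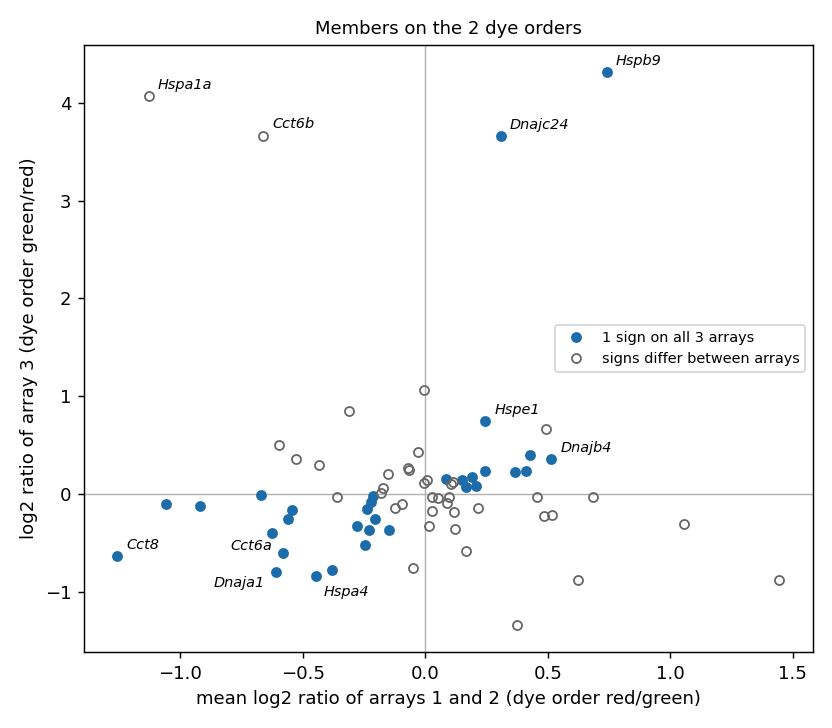
Each of the 72 members is placed by its mean log2 ratio on arrays 1 and 2 (dye order red/green, horizontal axis) and its log2 ratio on array 3 (dye order green/red, vertical axis). Filled points have 1 sign on all 3 arrays (32 genes), and Hspb9, Hspa1a, Dnajc24 and Cct6b lie above 3.5 on array 3.

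Hsp90b1 was the 1 Hsp90 gene measured. It encodes Grp94, the Hsp90 of the ER, which folds integrins and Toll-like receptors. Its log2 ratios were -0.33, -0.13 and -0.37 on arrays 1, 2 and 3, all on the side of more RNA at 13.5 dpc, with a mean of -0.28 ± 0.13 (SD, n = 3 arrays). The limma interval ran from -0.70 to 0.14 (adjusted p = 0.615). The cytosolic genes Hsp90aa1 and Hsp90ab1 were not analysed here.

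Hspa5, which encodes the ER Hsp70 BiP, is known to be induced together with Hsp90b1 and with Dnajc3, a J-domain partner of BiP, through the ER stress element. The 250 bases before the transcription start of these genes are shown because the element stands in each of them. Their ratios did not have 1 sign, and the part of the element in them was not tested. The sequences are RefSeq's (GRCm38.p6), written 5′ to 3′ on the strand of the gene, with each match to the element, which reads CCAAT, then NNNNNNNNN, then CCACG on either strand, in capitals.
Hsp90b1 (chr10:86705445-86705694, minus strand): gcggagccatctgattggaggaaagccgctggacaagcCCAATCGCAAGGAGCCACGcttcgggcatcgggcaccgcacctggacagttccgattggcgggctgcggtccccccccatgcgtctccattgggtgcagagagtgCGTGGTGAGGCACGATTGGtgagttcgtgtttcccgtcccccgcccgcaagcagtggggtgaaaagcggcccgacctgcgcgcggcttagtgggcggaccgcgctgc
Hspa5 (chr2:34771840-34772089, plus strand): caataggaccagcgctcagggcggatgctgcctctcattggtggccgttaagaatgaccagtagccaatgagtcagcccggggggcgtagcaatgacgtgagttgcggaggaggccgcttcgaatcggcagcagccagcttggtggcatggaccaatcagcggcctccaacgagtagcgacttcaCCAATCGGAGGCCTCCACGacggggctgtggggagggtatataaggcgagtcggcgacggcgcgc
Dnajc3 (chr14:118937682-118937931, plus strand): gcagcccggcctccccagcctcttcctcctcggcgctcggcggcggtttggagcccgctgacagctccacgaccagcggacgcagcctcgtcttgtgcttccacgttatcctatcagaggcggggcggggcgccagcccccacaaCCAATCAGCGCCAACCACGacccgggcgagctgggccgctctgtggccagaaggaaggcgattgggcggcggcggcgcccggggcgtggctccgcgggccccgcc
The element was found in the windows of these 3 genes among the 61 of 74 members with a window in the RefSeq table. It stood in 3.8% of the 79 member windows and in 0.113% of all 32851 windows of the same length. Hsp90b1 has 2 matches.

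Hspa5 had ratios of 0.11, 0.23 and 0.07 and a mean of 0.13 ± 0.08, on the other side of 0 from Hsp90b1 on each array. Its value averages 2 features that disagree, with means of -0.11 and 0.37. The first had ratios of 0.07, -0.34 and -0.04, and on array 2 it lay below the -0.13 of Hsp90b1. Dnajc3 was the member whose arrays lay closest together, at 0.24, 0.25 and 0.24, with a mean of 0.24 ± 0.01 (adjusted p = 0.628). The difference Hsp90b1 minus Hspa5 was -0.41 ± 0.05 log2 units and had 1 sign on every array. This holds for the average of the 2 Hspa5 features, since against the first alone the sign turns on array 2. The pair was chosen after its values were seen, and an exact two-sided sign-flip test on 3 arrays cannot go below p = 0.25. The means of these 3 genes thus lay on both sides of 0, and none of them passed the test.

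The Hsp70 and Hsp110 genes had a median of -0.097 over 13 genes, with family medians of -0.082, -0.12 and -0.098 on arrays 1, 2 and 3. Only Hspa4, Hspa9 and Hspa5 had 1 sign on every array, which is 23.1% of the family against 35.3% of all rows. For Hspa5 this held for the average, while 1 of its 2 features differed in sign between arrays. Hspa4, an Hsp110-type nucleotide exchange factor, had ratios of -0.37, -0.52 and -0.84, so that all arrays lay on the side of more RNA at 13.5 dpc. Its mean was -0.58 ± 0.24, or 1.49-fold, with a limma interval from -1.06 to -0.10 (adjusted p = 0.524). Hspa9, the Hsp70 of the mitochondrial matrix that drives protein import, had -0.997, -0.26 and -0.40 and a mean of -0.55 ± 0.39 (adjusted p = 0.547). Here array 1 stood apart from the others.

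Hspa8, the constitutive cytosolic Hsp70, lay near 0. Its ratios were -0.16, 0.21 and -0.17, its mean was -0.04 ± 0.22, and the limma interval ran from -0.50 to 0.43. The means of its 2 features were 0.13 and -0.20. The other Hsp110 genes also lay across 0: Hsph1 had a mean of -0.12 ± 0.12, and Hspa4l had -0.20 ± 1.09 with ratios of -0.08, 0.83 and -1.34. Hspa13, an Hsp70-like protein of the ER, had -0.10 ± 0.11, and Hspa14, which acts at the ribosome, had 0.02 ± 0.27.

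Hspa1a, the classic stress-inducible Hsp70, had the widest spread of the members. Its ratios were 0.90, -3.16 and 4.07, the lowest of the members on array 2 and the second highest on array 3, and the interval ran from -3.48 to 4.69. A probe for Hspa1a may also bind RNA of its near-identical neighbour Hspa1b, which is uncertain here. The genes known mainly from testis were also spread, with Hspa2 at -0.29 ± 0.44 and Hspa1l at -0.25 ± 0.64. The distant relatives Hspa12a and Hspa12b, the second known from endothelium, had 0.30 ± 0.71 and 0.04 ± 0.20.

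**Figure D2:**
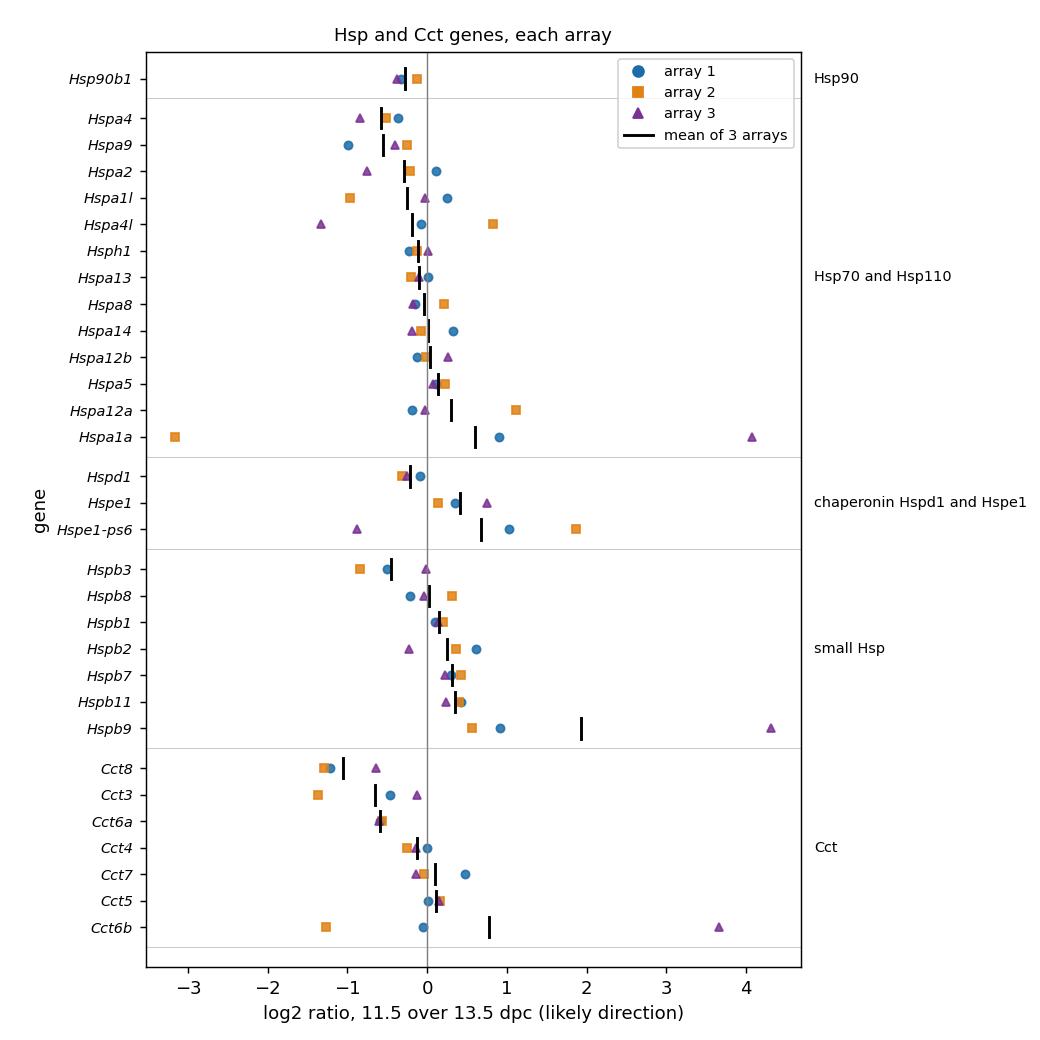
Log2 ratio (horizontal axis, 11.5 over 13.5 dpc in the likely direction) of each Hsp and Cct gene on array 1 (circles), array 2 (squares) and array 3 (triangles), with the mean of 3 arrays as a black bar. Cct8 and Cct6a lie left of 0 on every array, Hspd1 and Hspe1 lie on opposite sides, and Hspa1a spans -3.16 to 4.07.

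Hspd1 and Hspe1 encode the barrel (Hsp60) and the lid (Hsp10) of the chaperonin that folds proteins of the mitochondrial matrix. They are neighbours on chromosome 1 and are known to be transcribed in opposite directions from a shared promoter. Their RefSeq windows of 300 bases shared 285 bases. The 250 bases before the start of Hspe1 are shown because both genes hold the same heat shock element, the binding motif of heat shock factors. Their ratios had opposite signs, and the part of the element in them was not tested. Capitals mark the overlapping matches to 3 units of that element, which read GAANNTTC followed by NNGAA, or TTCNNGAA followed by NNTTC; each contains the element of 2 units.
Hspe1 (GRCm38.p6, chr1:55087898-55088147, plus strand): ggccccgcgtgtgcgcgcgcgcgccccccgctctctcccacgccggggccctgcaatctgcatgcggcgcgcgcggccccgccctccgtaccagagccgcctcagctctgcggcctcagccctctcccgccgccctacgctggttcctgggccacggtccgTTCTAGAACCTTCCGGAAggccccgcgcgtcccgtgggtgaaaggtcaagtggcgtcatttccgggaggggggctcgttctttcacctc
This motif stood in 0.466% of all windows and in 5.06% of the 79 member windows. The members with it were Hspd1, Hspe1 and Dnajb6, where Hspd1 and Hspe1 are counted apart though they hold the same element.

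Hspd1 had log2 ratios of -0.09, -0.32 and -0.25 and a mean of -0.22 ± 0.12 (adjusted p = 0.658). Hspe1 had 0.35, 0.14 and 0.75 and a mean of 0.41 ± 0.31 (adjusted p = 0.577). Hspd1 thus lay on the side of more RNA at 13.5 dpc, and Hspe1 on the side of less, on each array. The difference Hspd1 minus Hspe1 was -0.44, -0.46 and -0.997 log2 units, or -0.63 ± 0.32. It was also singled out after its values were seen, and the mean of Hspe1 became -0.084 with array 3 turned. Hspe1-ps6, a pseudogene of Hspe1 by its symbol, had 1.03, 1.86 and -0.88, and RNA of Hspe1 itself may bind such a probe, which is uncertain here.

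Most of the small heat shock proteins taken by the name Hspb had mean ratios above 0, the side of less RNA at 13.5 dpc. Of 7 genes, 6 had a positive mean, 4 of them positive on every array, and the median was 0.25 with family medians of 0.30, 0.36 and 0.14 on the arrays; it was 0.052 with array 3 turned. Of all 19015 rows, 9333 had a positive mean and 16.8% were positive on every array. The naming rule leaves out 3 listed small heat shock relatives, and all of them lay on the other side by mean. Cryab had -1.11, and Odf1, a sperm tail protein, had -0.66 ± 0.40. The lens αA-crystallin Cryaa had -0.84 ± 1.21, with a positive ratio on array 2. The positive side thus describes the genes named Hspb and not small heat shock proteins at large. No member met an unadjusted limma p of 0.05 (0 of 7, against 9.24% of all rows). Hspb11, which is Ift25 of the intraflagellar transport that builds cilia, had ratios of 0.43, 0.40 and 0.24 and a mean of 0.35 ± 0.10 (adjusted p = 0.555). Hspb7, known from heart muscle, had 0.30, 0.43 and 0.22 and a mean of 0.32 ± 0.11 (adjusted p = 0.58). Hspb1, the widely expressed Hsp27 family member, had 0.10, 0.20 and 0.14, close together and above 0, with a mean of 0.15 ± 0.05.

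The remaining small heat shock proteins were less even. Hspb9, known from testis, had the highest mean of all members at 1.93 ± 2.07, from ratios of 0.92, 0.57 and 4.31, and the mean was -0.94 with array 3 turned. Hspb8, the partner of Bag3, had 0.02 ± 0.27. Hspb3, a muscle protein, was the 1 Hspb gene with more RNA at 13.5 dpc, at -0.50, -0.84 and -0.01 with a mean of -0.45 ± 0.42. Hspb2 had 0.62, 0.36 and -0.23 and a mean of 0.25 ± 0.43. Its neighbour on chromosome 9 is Cryab, the lens and muscle chaperone αB-crystallin, which had -0.87, -0.49 and -1.97 and a mean of -1.11 ± 0.77 (adjusted p = 0.53). Cryab was 2.16-fold higher at 13.5 dpc by that mean, which became 0.20 with array 3 turned.

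Among 41 tested Dnaj genes the median was 0.026, with 11 negative and 6 positive on all arrays (41.5% with 1 sign, against 35.3% of all rows, of which 18.5% were negative and 16.8% positive). At an unadjusted limma p under 0.05 there were 5, or 12.2%, against 9.24% of all rows. All 4 Dnaja genes had negative means, as did 9682 of all 19015 rows. Of the 4, 2 were negative on every array, against 18.5% of all rows. Dnaja1, a main cytosolic partner of Hsp70, had ratios of -0.57, -0.65 and -0.80, each on the side of more RNA at 13.5 dpc. Its mean was -0.67 ± 0.12, or 1.59-fold, with an interval from -1.09 to -0.26 (limma adjusted p = 0.471). Dnaja2, its close relative, had -0.30, -0.25 and -0.33 and a mean of -0.29 ± 0.04 (adjusted p = 0.583). The mitochondrial Dnaja3 and the cytosolic Dnaja4 differed in sign between arrays, with means of -0.23 ± 0.64 and -0.19 ± 1.10.

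The Dnajb genes pointed both ways, with 4 negative and 3 positive on every array among 13 (53.8% with 1 sign, against 35.3% of all rows). Dnajb4, a cytosolic relative of the stress-inducible Dnajb1, had ratios of 0.49, 0.54 and 0.36, all on the side of less RNA at 13.5 dpc. Its mean was 0.46 ± 0.10 (adjusted p = 0.534), and its 2 features had means of 0.50 and 0.42. Dnajb5, of the same group, had 0.45, 0.40 and 0.40 and a mean of 0.42 ± 0.03 (adjusted p = 0.539). Dnajb1 itself lay on the other side of 0, at -0.25, -0.05 and -0.36 with a mean of -0.22 ± 0.16, which became 0.022 with array 3 turned.

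Dnaja1 minus Dnajb4, a pair chosen after its values were seen, was -1.06, -1.19 and -1.16 log2 units, or -1.13 ± 0.07. One window of each gene holds the short heat shock element of 2 units, GAANNTTC or TTCNNGAA, in capitals in the following RefSeq sequences (GRCm38.p6). They are shown because the same motif stands before genes whose ratios had opposite signs.
Dnaja1 (chr4:40722218-40722467, plus strand): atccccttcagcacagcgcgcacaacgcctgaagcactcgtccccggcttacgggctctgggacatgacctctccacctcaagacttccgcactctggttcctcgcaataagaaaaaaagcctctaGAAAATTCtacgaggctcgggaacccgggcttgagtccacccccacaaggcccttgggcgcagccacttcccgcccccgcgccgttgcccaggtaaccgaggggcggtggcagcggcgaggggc
Dnajb4 (chr3:152193846-152194095, minus strand): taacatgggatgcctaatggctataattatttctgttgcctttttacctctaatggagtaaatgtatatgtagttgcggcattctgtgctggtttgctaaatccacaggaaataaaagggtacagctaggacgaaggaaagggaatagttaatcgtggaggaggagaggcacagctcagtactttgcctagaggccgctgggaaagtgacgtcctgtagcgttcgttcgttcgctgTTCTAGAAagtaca
The short element was common, at 12.8% of all windows and 20.3% of the 79 member windows. Of the 13 tested members that had it, 6 had a negative and 7 a positive mean, with a median of 0.038, against 21 negative and 25 positive and a median of 0.019 among the 46 tested members without it. A match is a run of letters and no measured binding.

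Of the other Dnajb genes, Dnajb14, of the ER membrane, had -0.49, -0.62 and -0.25 and a mean of -0.46 ± 0.19 (adjusted p = 0.539). Dnajb9, an ER partner of BiP, had -1.02 on array 1 and -0.06 and -0.16 on arrays 2 and 3. Dnajb11, another ER partner of BiP whose human counterpart is mutated in a polycystic kidney disease, had 0.34, -0.13 and 0.10 and a mean of 0.11 ± 0.23. Its interval of -0.37 to 0.58 spanned both directions. Dnajb6 had 0.18 ± 0.18 and Dnajb13, of the ciliary axoneme, -0.21 ± 0.13.

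**Figure D3:**
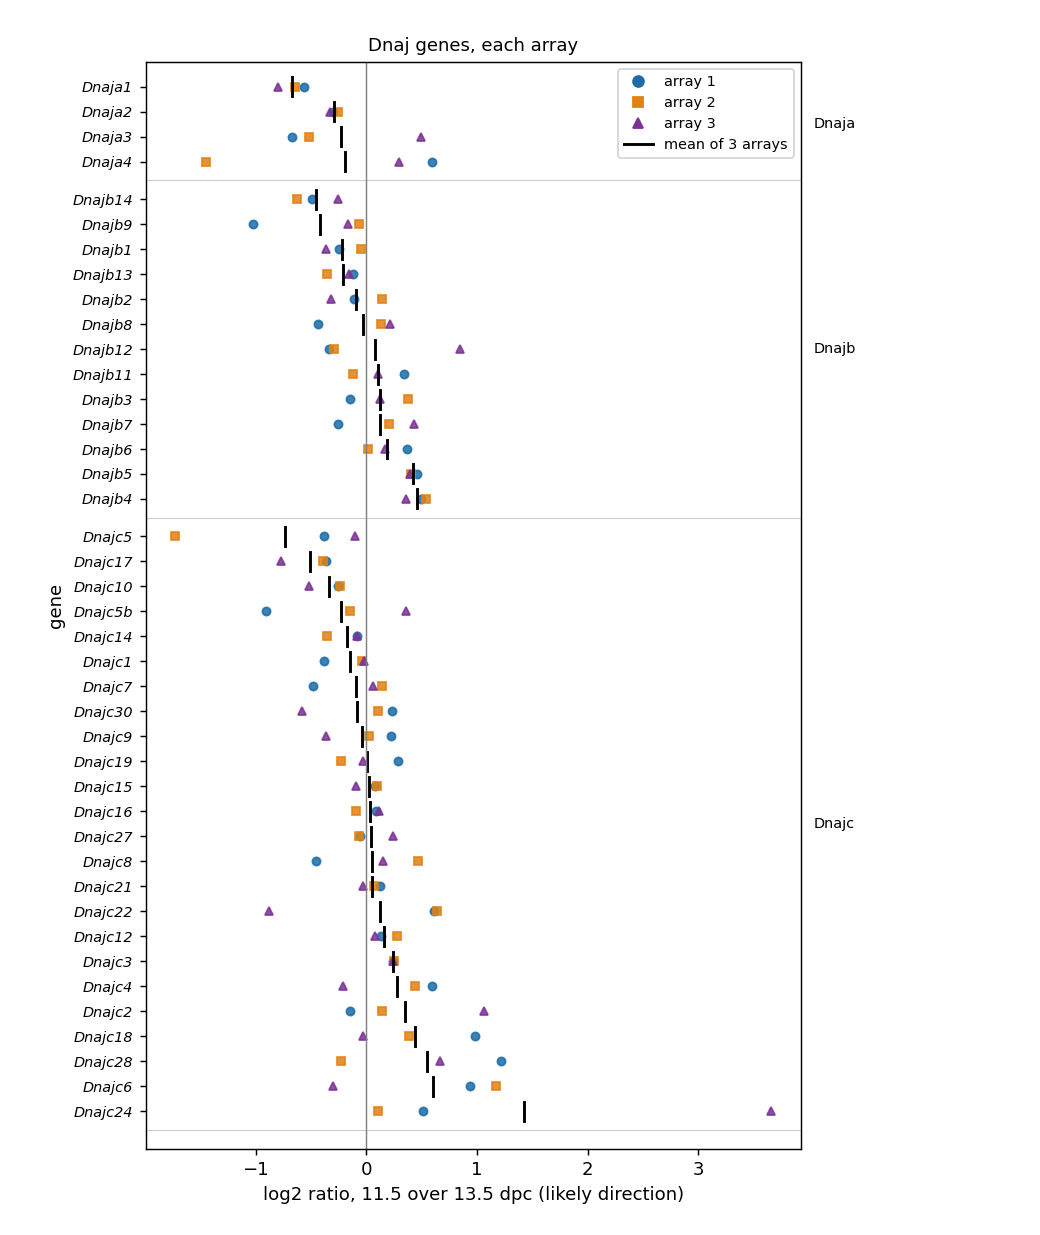
Log2 ratio (horizontal axis, 11.5 over 13.5 dpc in the likely direction) of each Dnaj gene on array 1 (circles), array 2 (squares) and array 3 (triangles), with the mean of 3 arrays as a black bar. Dnaja1 lies left of 0 and Dnajb4 and Dnajb5 right of 0 on every array, while Dnajc24 owes its mean of 1.43 to array 3.

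The Dnajc genes, which share little beyond the J domain, had a median of 0.037 over 24 tested genes. Of these 5 were negative and 3 positive on every array (33.3% with 1 sign, against 35.3% of all rows). Only 1 met an unadjusted limma p under 0.05, or 4.17%, against 9.24% of all rows. That gene was Dnajc17, a nuclear protein linked to splicing, with ratios of -0.37, -0.39 and -0.77 and a mean of -0.51 ± 0.23 (adjusted p = 0.539), which became 0.0045 with array 3 turned. Dnajc10, a disulphide reductase of the ER, had -0.25, -0.23 and -0.52 and a mean of -0.34 ± 0.16, which became 0.012 with array 3 turned. Dnajc5, the cysteine string protein of synaptic vesicles, had the lowest mean of the Dnaj genes at -0.74 ± 0.87, of which array 2 gave -1.73 and arrays 1 and 3 gave -0.39 and -0.11.

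On the side of less RNA at 13.5 dpc, Dnajc24, an enzyme cofactor of diphthamide synthesis, had 0.51, 0.10 and 3.66 and a mean of 1.43 ± 1.95, which became -1.01 with array 3 turned. Dnajc6, the clathrin-uncoating auxilin, had 0.94 and 1.18 on arrays 1 and 2 and -0.31 on array 3. Dnajc22 likewise had 0.61 and 0.64 against -0.88. Members of the mitochondrial import motor were near 0, with Dnajc19 at 0.01 ± 0.26 and Dnajc15 at 0.03 ± 0.11. For Dnajc1, the features had means of -0.72 and 0.42, each with 1 sign on all arrays, so its average of -0.15 describes neither. The features of Dnajc2 had means of 1.43, -0.18 and -0.19, and the first of them gave 3.65 on array 3.

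Cct8 had the lowest mean of the 72 tested members as deposited, the side of more RNA at 13.5 dpc; with array 3 turned it was -0.62, above Hspa1a, Cct6b, Dnajc24, Hspb9 and Dnajc5. Its log2 ratios were -1.21, -1.30 and -0.64, with a mean of -1.05 ± 0.36, or 2.07-fold, which placed it at percentile 1.83 of all rows. Its limma interval ran from -1.61 to -0.48 (adjusted p = 0.415). Cct6a had -0.59, -0.56 and -0.61 and a mean of -0.59 ± 0.02, or 1.5-fold (adjusted p = 0.488). Cct3 had -0.46, -1.37 and -0.12 and a mean of -0.65 ± 0.65 (adjusted p = 0.576), so its arrays shared a sign and little else.

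Other subunits of this ring lay closer to 0. Cct5 had 0.01, 0.16 and 0.15 and a mean of 0.11 ± 0.09, and Cct7 had 0.48, -0.05 and -0.14 and a mean of 0.10 ± 0.33. Cct4 had a mean of -0.13 ± 0.13 from features with means of -0.25 and -0.01. Tcp1, the subunit that the naming rule leaves out, had -0.60, 1.05 and -0.36 and a mean of 0.03 ± 0.89. Cct8 minus Cct5, also paired after their values were seen, was -1.22, -1.46 and -0.79 log2 units. The 6 subunits other than Cct6b had a standard deviation of 0.59, 0.65 and 0.31 among themselves on arrays 1, 2 and 3, where all rows had 0.56, 0.75 and 0.93. Cct6b, the testis form of Cct6a, had -0.05, -1.27 and 3.67. The family median was -0.13, and it was -0.58 without array 3.

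**Figure D4:**
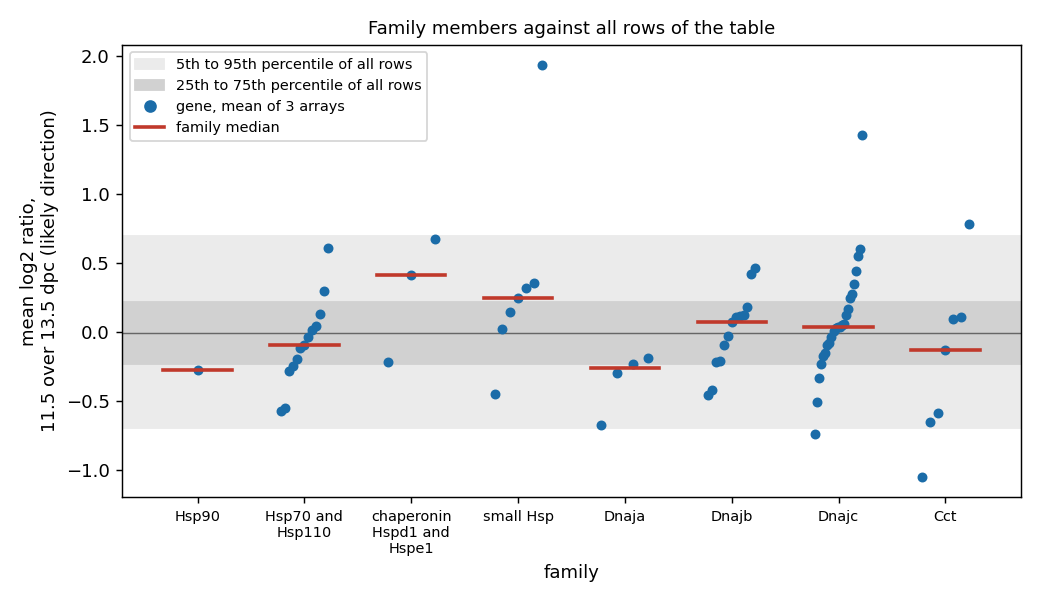
Mean log2 ratio (vertical axis, 11.5 over 13.5 dpc in the likely direction) of each tested member (points), by family, with the family median as a red line. The bands span the 5th to 95th and the 25th to 75th percentile of all 19015 rows (-0.70 to 0.70 and -0.24 to 0.22), and Cct8, Dnajc5, Hspb9, Dnajc24 and Cct6b lie outside the wider band.

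A list of 88 co-chaperones, heat shock factors and folding enzymes was read from the same fit. Of its 76 tested genes, 11, or 14.5%, met an unadjusted limma p under 0.05, against 9.24% of all rows. Of these 7 were negative and 4 positive, against 5.07% and 4.17% of all rows. None passed the adjusted p, and the median was -0.034. Without arrays 1, 2 and 3 in turn the 11 became 3, 4 and 12, where 3.87%, 5.36% and 12.3% of all rows met the same p. With array 3 turned the count was 0, against 6.58% of all rows. Fkbp8, a membrane-bound Hsp90 co-chaperone, had ratios of -2.25, -1.18 and -1.25, all on the side of more RNA at 13.5 dpc, and a mean of -1.56 ± 0.60, or 2.95-fold (adjusted p = 0.405). Calr, the ER lectin chaperone calreticulin, had -0.82, -1.17 and -0.74 and a mean of -0.91 ± 0.23 (adjusted p = 0.41). The disulphide isomerase gene Pdia5 had -0.50 ± 0.19.

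In the opposite direction, Unc45a, an Hsp90 co-chaperone for myosin, had 0.64, 1.05 and 0.55 and a mean of 0.75 ± 0.27 (adjusted p = 0.485). Ddit3, the unfolded protein response factor CHOP, had 0.69, 0.45 and 0.73 and a mean of 0.62 ± 0.15 (adjusted p = 0.496). Hsf2bp, a binding partner of heat shock factor Hsf2, had 0.87 ± 0.49 and the disulphide oxidase gene Ero1b 0.48 ± 0.18. Hsf2 itself had -0.48, -0.12 and -0.88 and a mean of -0.49 ± 0.38, which became 0.095 with array 3 turned. Trap1, the mitochondrial Hsp90, had 0.05, -0.32 and -0.29 and a mean of -0.19 ± 0.21. Hsf1, the main factor of the heat shock response, was not analysed here. By part of the list, the medians were -0.84 for the small heat shock relatives Cryab, Cryaa and Odf1, -0.24 for 4 heat shock factors and their binding proteins, 0.046 for 17 Hsp90 co-chaperones, -0.0068 for 15 Hsp70 co-chaperones (which include the member Hspa13), 0.057 for 10 genes of Tcp1, prefoldin and its relatives, -0.061 for 20 ER folding genes and -0.14 for 7 mitochondrial proteases.

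Markers of other cells were read beside these values. Of 17 tested erythroid markers, 11 were positive and 0 negative on all arrays, against 16.8% and 18.5% of all rows. Their median was 1.01, the side of less RNA at 13.5 dpc. By mean, 13 were positive and 4 negative (Gata1, Sptb, Slc4a1 and Tal1), none of the 4 with 1 sign on all arrays. Striated muscle markers had a median of -0.041 over 12 genes, but these ran from -2.36 for Acta1 to 0.68 for Actc1. Acta1, Tnnc1 (-0.86) and Myog (-0.54) were negative on every array, as were the muscle-expressed Cryab and Hspb3, while Actc1, Tnni1 and Ckm were positive on every array, as was Hspb7. Germ cell markers had a median of -0.33 over 8 genes, from -0.71 for Tex101 to 0.26 for Pou5f1. On every array 4 of them were negative and 0 positive, against 18.5% and 16.8% of all rows. Muscle is the tissue from which Hspb3 and Hspb7 are mainly known, and testis that of Hspb9, Hspa2, Hspa1l and Cct6b. Of these, Hspa2, Hspa1l and Cct6b differed in sign between arrays, as did Hspb2, the neighbour of Cryab. Kidney developmental markers had a median of -0.21 over 17 genes, from -1.62 for Cdh16 to 0.72 for Foxd1. On every array 9 of them were negative and 3 positive, against the same shares of all rows. The part of these cell mixtures in the chaperone ratios was not tested.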

How the data were processed

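The authors' deposited values are log2 ratios of the 2 channels of each array; base 2 was read from the values, since raising 2 to each value between -3 and 2 gave whole multiples of 0.001 (tolerance 0.02 of a step) for 100% of them. Per the labels, spots were read with ImaGene 5.5. The labels describe print-tip loess followed by normalisation between arrays, and also a Lowess curve, and do not say which of them made the deposited ratios. Of 22702 features, 883 controls or blanks were left out. Features of 1 symbol were averaged after keeping the 20386 with a value on all 3 arrays, giving 19015 rows. By Entrez identifier, 15970 features were found in RefSeq's GRCm38.p6 gene list, and 0 symbols needed an update.

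The test of each mean against 0 used limma 3.58.1 (R 4.3.3; two-sided, Benjamini-Hochberg over all rows, threshold 0.05), a procedure tested on simulated data. Array 3 was to be turned only if it correlated below 0 with both other arrays; at 0.12 and -0.12 it did not and was used as deposited. These correlations alone do not show its orientation, on which the marker ratios in the results bear directly. Nothing in the labels gives the arrays RNA extracts of their own. The p-values thus measure only the spread between these arrays, possibly technical, and precision is limited by the number of arrays. Spot intensities were not used here, so dim or saturated spots could not be assessed. Alternatives were median centring, quantile normalisation, array 3 turned, each array left out, a dye term, single features and rows with values on at least 2 arrays. Named genes were every tested member outside the Dnaj families, Dnaj genes of 1 sign with a mean of at least 0.5 in size or the 2 largest limma statistics each way, and 4 listed co-chaperones each way plus Tcp1, Hsf1, Hsf2, Trap1 and Cryab. Other Dnaj genes, and the gene pairs, were named after their values were seen. The members and lists were chosen with earlier results of these data known.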

Additional observations from a re-analysis of the deposited data

How the results depend on the processing

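No row and no member passed limma's adjusted threshold under any alternative run (0 in each). The 8 members at an unadjusted p under 0.05 became 4 with array 3 turned (6.58% of all rows), 7 to 10 under median centring, quantile normalisation, the dye term and rows on at least 2 arrays (8.6% to 14% of all rows), and 1 to 10 without 1 array (3.87% to 12.3%); 7 of the 8 were shared after median centring, 7 after quantile normalisation and 0 with array 3 turned. The 32 members of 1 sign (44.4%, against 35.3% of all rows) became 17 with array 3 turned. They became 42 to 49 when 1 array was left out, since a sign shared by the other arrays then sufficed. The 1 member at least 1.5-fold on every array (1.39%, against 2.52% of all rows) became 0 after median centring, 2 with array 3 turned, 2 over single features and 2 to 5 without 1 array. For either count, shares of all rows are not given under these alternatives, so no background stands beside the changed counts. The 11 genes of the co-chaperone list at an unadjusted p under 0.05 became 0 with array 3 turned (6.58% of all rows) and 3 to 12 without 1 array (3.87% to 12.3% of all rows). Turning array 3 also changed medians, to -0.029 for Hsp90b1, -0.016 for Hsp70 and Hsp110, -0.052 for the mitochondrial chaperonin, 0.052 for small heat shock proteins and -0.022 for all members; the last was -0.0028 with a dye term. Without 1 array the medians ran from -0.14 to -0.070 (Hsp70 and Hsp110), 0.077 to 0.44 (chaperonin), 0.17 to 0.37 (small heat shock proteins), -0.58 to -0.072 (Cct) and -0.026 to 0.0057 (all members). Of the 32 members with 1 sign on all arrays, turning array 3 gave 6 the opposite sign. They were Dnajb1 (0.022), Dnajc10 (0.012), Dnajc17 (0.0045), Dnajc24 (-1.01), Hspb9 (-0.94) and Hspe1 (-0.084). Among the named genes of the co-chaperone list, the same held for Cryab (0.20) and Hsf2 (0.095). Other listed genes and the markers were not counted here. The cause of these changes was not tested. Median centring, quantile normalisation and the dye term changed the sign of 0 of the 32 members. The largest marker ratios kept 1 sign on all arrays as deposited. The direction of the ratio itself is likely but not settled, 2 residual degrees of freedom limit every p-value (1 with the dye term), and signal over background could not be assessed.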
